A study of Mus musculus with 10 samples.

Results

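The genes described here write, read or erase chromatin marks that keep genes silent or active: 48 genes of the polycomb complexes, the trithorax or MLL complexes, and the DNA methylation machinery. They were taken as a named list and not by a cut on any measured value. Earlier results of these data were known when the list was made. Probe sets carrying one of these names as their only gene symbol were found for 47 of the 48 genes, 118 probe sets in all out of 45037 that are not controls. Suv39h1 was not analysed here. For each gene the probe set of highest mean over the 10 arrays was read, as for 18193 genes in all. The remaining probe sets of the 38 genes that had more than 1 were used to compare directions.

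The study asked which genes respond to HOXB4, a homeobox protein that drives blood stem cells to multiply. Mouse Lin-Sca1+ cells were transduced with a retrovirus carrying GFP and either HOXB4-ER or HOXB4const. HOXB4-ER is HOXB4 fused to an estrogen receptor domain, so that it enters the nucleus in the presence of 4-hydroxytamoxifen (TMX), whereas HOXB4const is unmodified and constitutively active and served as the control for TMX itself. All cells were expanded for 14 days with cytokines and 10 nM TMX, sorted as GFP+ LSK cells (lineage negative, Sca1+, ckit+), and kept for 12 h more with TMX before they were divided. The 5 groups of 2 arrays each were HOXB4-ER cells with 10 nM TMX for 1 h, HOXB4-ER cells without TMX for 1 h, HOXB4-ER cells without TMX for 4 h, HOXB4const cells with 10 nM TMX for 1 h, and HOXB4const cells without TMX for 1 h. Every group therefore carried retroviral HOXB4 and had seen 14 days of TMX, and neither cells with TMX at 4 h nor cells without retroviral HOXB4 are among these groups. The labels call the arrays of a group biological replicates 1 and 2. No source used here gives strain, age, number of animals or what a replicate number stands for, so p-values measure the spread between these arrays.

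Polycomb repressive complex 2 (PRC2) methylates histone H3 at lysine 27 through Ezh1 or Ezh2, and PRC1 ubiquitinates histone H2A through Ring1 or Rnf2 and compacts the marked chromatin. The PR-DUB complex of Bap1 and an Asxl protein removes that ubiquitin. The MLL and SET1 complexes methylate H3 at lysine 4 and oppose polycomb, and Kmt2a with its cofactor menin keeps Hox genes active in blood progenitors. Dnmt1 copies DNA methylation at replication, Dnmt3a and Dnmt3b set it anew, and the TET enzymes oxidise it. Bmi1 is needed for stem cells to renew themselves, and mutations of ASXL1, DNMT3A, TET2 and EZH2 recur in human blood clones and leukemias.

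Sequences upstream of these genes were read from RefSeq promoter windows on GRCm38.p6, each running from 250 bases before a transcription start to 50 bases after it. Of the 48 genes, 43 had a window, 57 windows in all, and 32851 windows of all genes served for comparison. The windows of the listed genes were rich in CG, with a median of 24 CG dinucleotides against 7 over all windows. The letters bound by E2F factors, which drive S-phase genes, were searched as TTTCCCGC, TTTCGCGC, TTTGCCGC and TTTGGCGC on both strands. They stood in 5 of the 57 windows, those of Dnmt1, Ezh2, Phf19, Suz12 and Suv39h1, and in 2.26% of all windows. The joint HOX and PBX letters TGATTAAT, TGATTCAT, TGATTGAT and TGATTTAT stood in 0 of the 57 windows and in 3.22% of all windows. The E2F letters hold CG and the HOX and PBX letters do not. Since the windows of the listed genes are richer in CG, the shares over all windows are not a background matched in base composition. A match describes letters and is not a bound site, and the absence of one concerns this window alone. The 30 bases around each E2F match of the measured genes are shown. Ezh2 and Dnmt1 were among the genes whose arrays separated by replicate number, but Suz12 and Phf19 were not. Tet2, Pcgf6 and Rbbp5 also separated and had no E2F match. Any link between the letters and the replicate number was not tested. The bases are written along the gene with the match in capitals. A match on the opposite strand reads as the reverse complement.
Ezh2: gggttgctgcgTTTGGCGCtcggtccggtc
Dnmt1, match before the start: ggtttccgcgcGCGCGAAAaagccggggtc
Dnmt1, match after the start: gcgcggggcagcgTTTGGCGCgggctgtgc
Suz12: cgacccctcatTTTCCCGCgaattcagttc
Phf19: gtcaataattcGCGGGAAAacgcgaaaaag
The Ezh2 stretch lies at chr6:47595009-47595038 on the minus strand, and its match begins at transcribed base 4. The Dnmt1 stretches lie at chr9:20952824-20952853 and chr9:20952574-20952603 on the minus strand, in 1 of the 3 windows of that gene. Their matches begin 219 bases before the start and at transcribed base 34. The Suz12 stretch lies at chr11:79992876-79992905 on the plus strand and its match begins 219 bases before the start. The Phf19 stretch lies at chr2:34914166-34914195 on the minus strand and its match begins 208 bases before the start.

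The arrays gave log2 signals, whose median over all probe sets lay between 3.96 and 5.32 on the 10 arrays. The array of HOXB4const cells without TMX, replicate 1, stood apart with the highest median, 5.32. It had 0.0155% of its values below 0, against 0.377% (HOXB4const with TMX, replicate 2) to 8.17% on the others. Kit, Cd34, Myb and Gata2, some of the measured genes of early progenitors, had mean log2 signals of 9.77, 11.3, 11.3 and 9.54. The monocyte genes Csf1r and Mpeg1 were also measured, at 9.28 and 7.70 on average, and the erythroid factor Klf1 lay at 4.04, at the median of all probe sets, 4.05. Ly6a, which encodes Sca1, was not analysed here. The arrays separated by replicate number: the summed level of 12 monocyte and macrophage markers (log2 of the sum of their linear signals) ran from 13.49 to 14.27 on the replicate 1 arrays and from 10.65 to 11.43 on the replicate 2 arrays. The Gapdh control signal at the 3′ end minus that at the 5′ end, which grows as RNA shortens, was 0.74 to 1.42 on replicate 1 and 1.48 to 3.98 on replicate 2 arrays. The summed level of mast cell and basophil markers ran from 12.46 to 13.27 over the 10 arrays, and that of the early progenitor markers from 12.69 to 13.38. The signals of these markers do not by themselves set the cell type. In bulk samples, fewer cells of a type and less RNA per cell cannot be told apart.

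**Figure D1:**
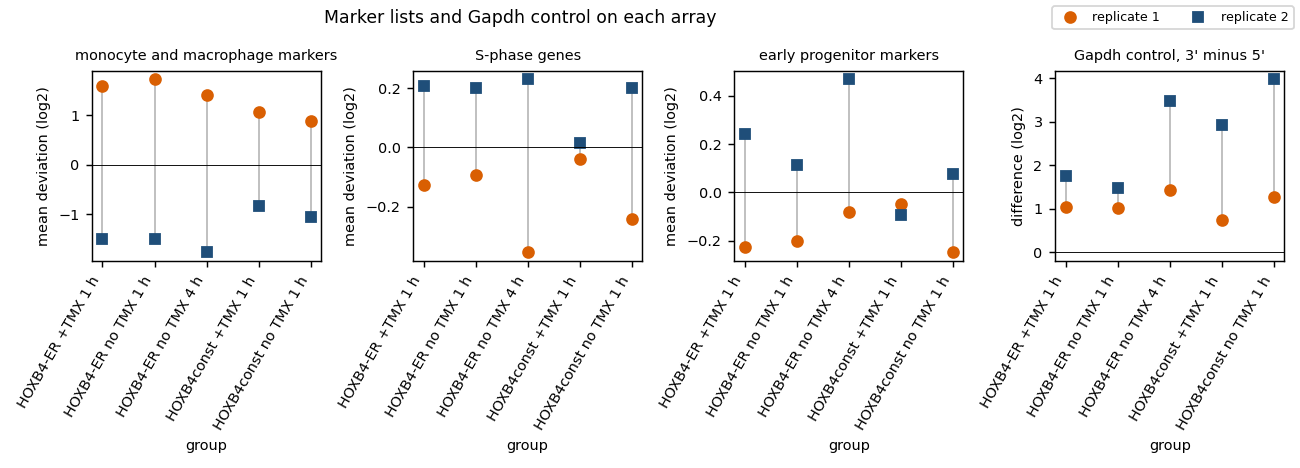
Mean deviation of 3 gene lists from their mean over the 10 arrays, and the Gapdh control signal, 3′ minus 5′ (log2, y axes), for each group (x axis), with replicate 1 as circles, replicate 2 as squares and a line joining the arrays of a group. The monocyte and macrophage markers lie above 0 on all 5 replicate 1 arrays and below 0 on all 5 replicate 2 arrays, and the Gapdh difference is higher on the replicate 2 array of every group.

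Most of these genes had signals above the middle of the array in the cultured LSK cells, which is a rank and not a detection call. The chosen probe set lay at or above the median level of all probe sets for 45 of the 47 genes, and on every one of the 10 arrays for 40 of them. The exceptions by mean level were Tet3 (2.62) and Cbx8 (3.39). The median spread between the arrays of a group was 0.40 (SD, log2) for the 47 genes, against 0.43 for the 11341 genes at or above the median level and 0.67 for all 18193 genes. Signals of different probe sets are not comparable as transcript levels, so the ranges that follow describe each gene across the arrays.

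In the PRC2 core, the methyltransferase Ezh2 ranged from 9.59 to 10.97, its slower counterpart Ezh1 from 6.31 to 7.85, the reader subunit Eed from 9.18 to 10.12 and the scaffold Suz12 from 8.39 to 9.28. The accessory subunits that bring PRC2 to DNA varied more, with Jarid2 between 6.95 and 8.43, Phf19 between 4.68 and 6.91, Mtf2 between 7.78 and 10.07, and Phf1 between 2.60 and 5.72. All but Phf1 stayed above the median level of all probe sets on every array.

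In PRC1, the E3 ligase Ring1 ranged from 6.35 to 7.62 and Rnf2 from 8.22 to 9.11. Among the PCGF subunits that define the PRC1 variants, Bmi1 (Pcgf4) ranged from 8.33 to 9.27, Pcgf3 from 6.66 to 7.73, Pcgf5 from 8.23 to 9.62 and Pcgf6 from 7.90 to 9.09. Pcgf1 and Pcgf2 had wide ranges, 1.66 to 6.37 and 3.22 to 5.57, each owing its lowest value to a single array of HOXB4const cells without TMX (replicate 2 for Pcgf1, replicate 1 for Pcgf2). The CBX readers of methylated H3 lysine 27 ranged from 5.85 to 6.79 (Cbx2), 7.30 to 7.99 (Cbx6), 3.93 to 6.22 (Cbx7) and 1.22 to 4.87 (Cbx8). The polyhomeotic subunits Phc1, Phc2 and Phc3 ranged from 6.28 to 7.48, 7.51 to 8.40 and 7.25 to 8.44. In PR-DUB, the deubiquitinase Bap1 ranged from 8.40 to 9.16 and its partners Asxl1 and Asxl2 from 7.56 to 8.57 and from 6.65 to 7.50.

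The steadiest genes were found among the H3 lysine 4 enzymes, their subunits and Dot1l. Ash2l, a core subunit of every MLL and SET1 complex, had an SD of 0.11 over the 10 arrays (8.54 to 8.91), and Dot1l, which methylates the globular core of H3, and Kmt2d, an enhancer methyltransferase, had 0.16 each. Kmt2a ranged from 7.67 to 9.14, Kmt2b from 7.65 to 8.51, Setd1a from 6.14 to 7.54, and the shared subunits Wdr5 and Rbbp5 from 8.39 to 9.11 and from 7.25 to 8.62. Men1, which encodes menin, ranged from 7.68 to 8.91. The demethylases of H3 lysine 27, Kdm6a and Kdm6b, ranged from 7.05 to 8.54 and from 5.18 to 6.57, and Kdm1a, which acts on H3 lysine 4, from 9.23 to 10.07.

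Dnmt1, the maintenance methyltransferase, ranged from 10.64 to 11.66, and the de novo enzymes Dnmt3a and Dnmt3b from 6.47 to 7.98 and from 7.50 to 9.23. The dioxygenases Tet1, Tet2 and Tet3 ranged from 4.51 to 6.20, 7.35 to 8.44 and 0.57 to 4.32. The H3 lysine 9 methyltransferases Ehmt1 (8.11 to 8.73) and Ehmt2 (9.37 to 10.02) were among the steadiest genes, with SDs of 0.17 and 0.21. Suv39h2, which trimethylates the same lysine at heterochromatin, ranged from 3.62 to 5.10, on both sides of the median level of all probe sets.

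**Figure D2:**
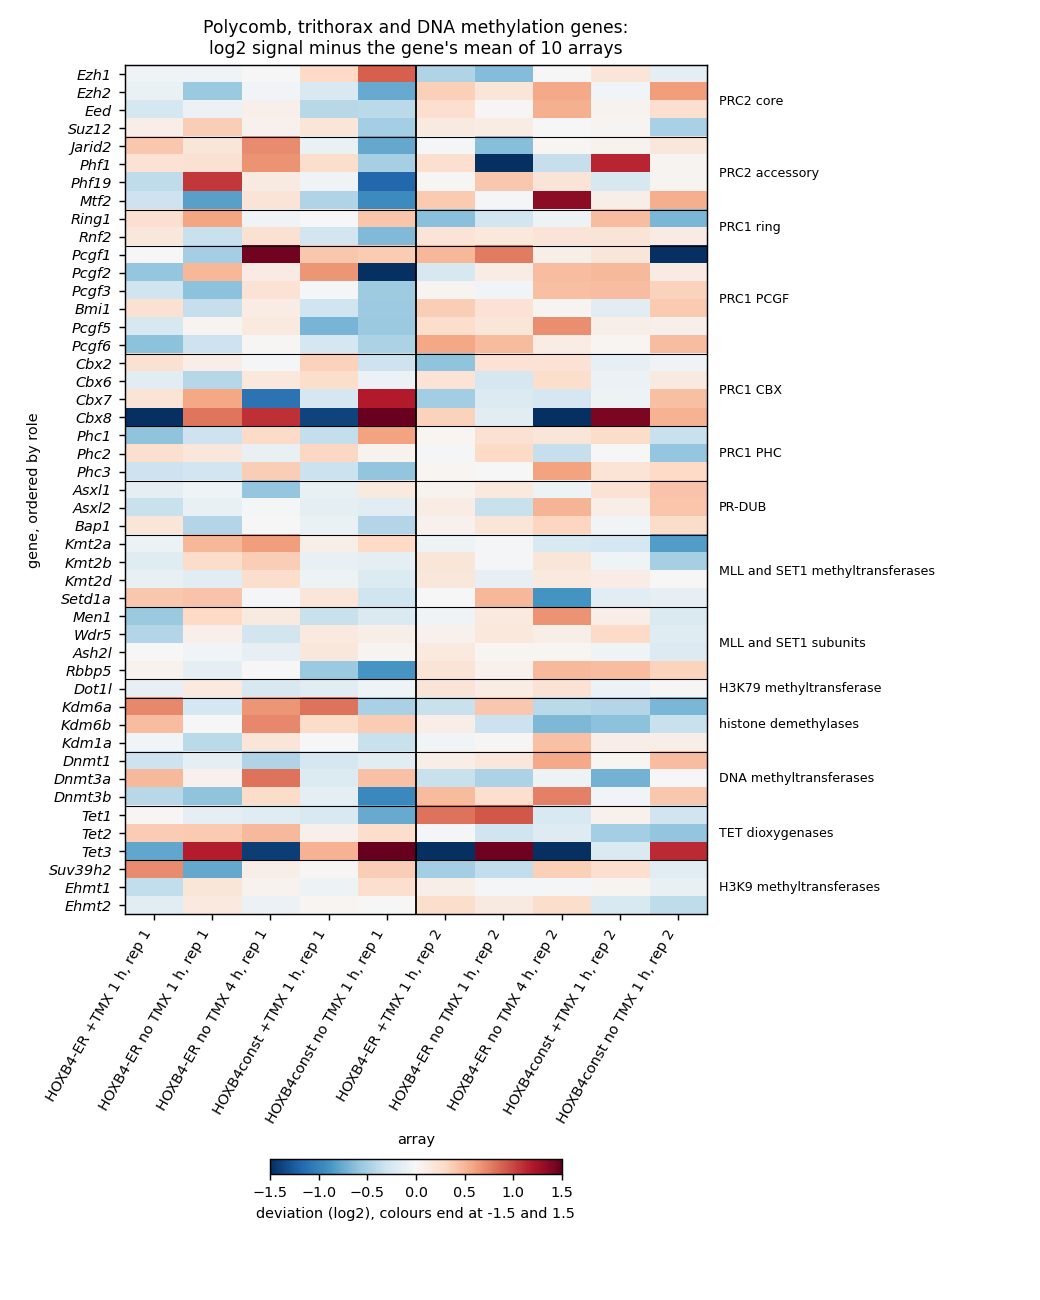
Log2 signal of each of the 47 genes (rows, ordered by role) on each array (columns, replicate 1 left and replicate 2 right of the black line), as the deviation from the gene's mean over the 10 arrays. Blue is lower, red is higher, and colours end at −1.5 and 1.5. The rows of Tet3, Cbx8 and Pcgf1 hold the deepest colours, and the rows of Ash2l, Dot1l and Kmt2d are nearly white.

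The first comparison asked what 1 h of TMX withdrawal does to these genes in HOXB4-ER cells. The smallest p-value belonged to Tet3, at log2 signals of 1.85 and 0.57 with TMX and 3.80 and 4.08 without it (replicates 1 and 2). The groups did not overlap, and all 4 values lay near or below the median level of all probe sets. The difference was 2.73 ± 0.57 (SE, log2), with an adjusted p of 0.579, so it did not pass. When the spread was allowed to follow the intensity, its SE was 1.16. With every value under 4 raised to 4, so that the dimmest signals carry no order, the Tet3 difference was 0.04 ± 0.10, so its size rests on values below that floor.

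By limma, 0 of the 47 genes and 0 of 45037 probe sets (0.0%) passed an adjusted p of 0.05 at 1 h, and 2145 probe sets had an unadjusted p under 0.05. Among the 47 genes, only Tet3 had one, against 3.53% of all genes. Withdrawal left 23 genes higher and 24 lower, with a median difference of −0.02, against 0.07 over all genes. The arrays of the 2 groups did not overlap for 12 genes, against 30.7% of all genes: 7 were higher, against 19.4%, and 5 lower, against 11.2%. Centring each array on its median gave 5 higher and 42 lower, with the median of all genes at −0.32 and that of these genes at −0.40. Quantile normalization gave 24 higher and 23 lower, with a median of 0.0086 for these genes. The split at 1 h therefore moved with centring and little with quantile normalization.

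After Tet3, the smallest p-values belonged to Phf19, Phf1, Suv39h2, Men1 and Pcgf2, with adjusted p = 1.0 for each. Phf19, the PRC2 subunit that binds methylated H3 lysine 36, gave 5.47 and 5.86 with TMX and 6.91 and 6.25 without, a difference of 0.91 ± 0.54. Men1 gave 7.68 and 8.19 with TMX and 8.54 and 8.38 without, a difference of 0.53 ± 0.45. The arrays of these 2 genes did not overlap between the groups. The Phf1 difference of −1.11 ± 0.79 came from 1 array, HOXB4-ER without TMX replicate 2, at 2.60 against 4.78 to 4.82 on the other 3, and was −0.01 without it. Pcgf2 was higher by 0.71 ± 0.63, while its second probe set gave −1.20 ± 1.29. Taking the mean of all probe sets of a gene, the differences were 0.20 for Phf19, 0.25 for Men1 and −0.24 for Pcgf2.

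Suv39h2 held a probe set that stood out by its p-value, and it is described here because of that value. The gene's brightest probe set gave 5.10 and 3.88 with TMX and 3.62 and 4.01 without, a difference of −0.67 ± 0.54. It was −0.0599 without replicate 1 of the group with TMX and −1.28 without replicate 2. Its dimmest probe set gave 4.41 and 4.84 with TMX, 0.79 and 0.54 without TMX at 1 h, and 4.51 and 5.004 without TMX at 4 h. The difference at 1 h was −3.96 ± 0.48, and its adjusted p of 0.457 equalled the smallest of any probe set in that comparison. Its size rests on the values of 0.79 and 0.54, far below the median level of all probe sets, 4.05, where signals have no sure order. No value with a floor is given for this probe set. In HOXB4const cells the same probe set gave 3.63 and 2.82 with TMX and 4.92 and 5.23 without, a difference in the opposite direction (1.85 ± 0.48, adjusted p = 0.88). The difference between constructs was −5.81 ± 0.68, with an adjusted p of 0.854. The remaining probe set of the gene differed by −2.02 ± 0.99 at 1 h in HOXB4-ER cells.

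Genes at the catalytic heart of each complex showed small differences at 1 h with wide intervals. Ezh2 differed by −0.32 (95% interval −1.73 to 1.09), Dnmt1 by 0.12 (−1.10 to 1.34), Kmt2a by 0.31 (−1.01 to 1.63), Tet2 by −0.14 (−1.42 to 1.14) and Dnmt3a by −0.28 (−1.57 to 1.00). Ezh1 (−0.10), Asxl1 (0.09) and Dot1l (0.10) lay nearer to 0, also with adjusted p = 1.0. Bmi1 read 9.10 and 9.25 with TMX and 8.52 and 9.08 without, a difference of −0.37 ± 0.48 in which the arrays did not overlap. The median half-width of the 95% interval was 1.20, and 0 of the 47 intervals lay within 1 log2 unit of 0. In this fit, which had no term for the replicate number, no interval therefore excluded a difference larger than 2-fold.

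Without TMX at 4 h against with TMX at 1 h, most of these genes were slightly higher. The count was 33 higher and 14 lower, the median difference 0.16, and the median of the 11341 genes at or above the median level 0.03, of which 6166 were higher. It was 33 to 14 after centring and 34 to 13 after quantile normalization as well, and leaving out 1 array moved the median between 0.05 and 0.25. None of the 47 genes (0) and 0 probe sets passed limma's test, with adjusted p = 1.0 for each of the 47, and 0 of the 47 had an unadjusted p under 0.05, against 2.63% of all genes (1509 probe sets). The arrays of the groups did not overlap for 15 genes, against 29.7% of all genes: 10 were higher, against 15.9%, and 5 lower, against 13.8%. Since the arrays with TMX are of 1 h, time and withdrawal cannot be told apart. Gapdh, 3′ minus 5′, was 2.45 ± 1.45 at 4 h and 1.39 ± 0.50 with TMX (SD, n = 2), and its part in these differences was not tested.

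The genes higher at 4 h came from several complexes. Men1 gave 8.38 and 8.91 at 4 h against 7.68 and 8.19 with TMX, a difference of 0.71 ± 0.45. Phc3, a polyhomeotic subunit, gave 8.21 and 8.44 against 7.54 and 7.87, a difference of 0.63 ± 0.49, though its second, dim probe set gave −1.12. Pcgf2 and Mtf2 gave 0.70 ± 0.63 and 0.73 ± 0.70; over all its probe sets Pcgf2 gave 0.0018, and Mtf2 ran from 0.16 to 1.30 with 1 array left out. Without passing, 5 of 6 PCGF genes and 3 of 3 DNA methyltransferases were higher, in a list with 33 higher and 14 lower. Tet1, Tet2 and Tet3 were all lower, Tet3 by −0.04. Setd1a, the methyltransferase of a SET1 complex, gave 7.02 and 6.14 against 7.44 and 7.04 with TMX, a difference of −0.66 ± 0.47 that was −0.22 without replicate 2 at 4 h and −1.10 without replicate 1. Tet1 was lower by −0.63 ± 0.54, and its 3 other probe sets were lower too (mean of all, −1.13). The mean of all probe sets was 1.06 for Men1 and −0.25 for Phc3. Ezh2 (0.13), Ezh1 (0.25), Bmi1 (−0.23), Kmt2a (0.28), Dot1l (−0.05), Dnmt1 (0.16), Dnmt3a (0.29), Tet2 (−0.03) and Asxl1 (−0.28) each differed by less than their SE.

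Between 1 h and 4 h without TMX, Tet3 again gave the smallest p-value, because its signal of 3.80 and 4.08 at 1 h stood against 1.21 and 1.13 at 4 h. The difference of −2.77 ± 0.57 had an adjusted p of 0.448, and Tet3 at 4 h differed from Tet3 with TMX by −0.04 ± 0.57. With the floor at 4 the difference between 4 h and 1 h was −0.04 ± 0.10. This comparison shares its 1 h arrays with the withdrawal comparison. Setd1a was lower at 4 h by −0.93 ± 0.47, Cbx7 by −0.86 ± 0.56, and Mtf2, Suv39h2 and Cbx6 were higher by 1.18 ± 0.70, 0.79 ± 0.54 and 0.55 ± 0.41. Over all probe sets of a gene these became 0.19 for Mtf2, 2.34 for Suv39h2, 0.11 for Cbx6 and −0.19 for Cbx7. The mean for Suv39h2 includes its dimmest probe set, described above. Setd1a was −0.49 without replicate 2 at 4 h. Mtf2 gave 7.91 and 8.71 at 1 h and 8.92 and 10.07 at 4 h. Limma passed 0 of 47 genes and 0 probe sets, and 1 gene, Tet3, had an unadjusted p under 0.05, against 4.4% of all genes (2558 probe sets). The split was 28 higher and 19 lower with a median of 0.15, and 40 to 7 after centring, with the median of all genes then at 0.36. The arrays did not overlap for 20 genes, against 36.4% of all genes: 12 were higher, against 15.2%, and 8 lower, against 21.2%. Ezh2 (0.45 ± 0.60), Dnmt3a (0.57 ± 0.55), Ezh1 (0.35), Bmi1 (0.14), Kmt2a (−0.03), Dot1l (−0.14), Dnmt1 (0.04), Tet2 (0.10) and Asxl1 (−0.37) did not pass, with adjusted p from 0.967 to 0.998.

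In HOXB4const cells, whose HOXB4 does not need TMX, withdrawal for 1 h also gave no call. Tet3 had the smallest p-value, at 3.15 and 2.40 with TMX and 4.32 and 3.74 without, a difference of 1.26 ± 0.57 with an adjusted p of 1.0, and of 0.16 ± 0.10 with the floor at 4. Its arrays did not overlap in either construct, and the difference between constructs was 1.48 ± 0.81 (adjusted p = 1.0), and −0.12 with the floor. Limma passed 0 of 47 genes and 0 probe sets, and 0 of the 47 had an unadjusted p under 0.05, against 3.66% of all genes (1956 probe sets). The split was 18 higher and 29 lower with a median of −0.09. That median was 0.05 without replicate 1 of HOXB4const without TMX, the array that stood apart. Centring gave 4 higher and 43 lower, with the median of all genes at −0.28. Arrays did not overlap for 11 genes, against 23.9% of all genes: 4 were higher, against 14.0%, and 7 lower, against 9.92%.

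Individual values in HOXB4const cells often rested on 1 array. Pcgf2 gave 5.57 and 5.39 with TMX and 3.22 and 5.03 without, a difference of −1.35 ± 0.63 that was −0.45 without the array that stood apart and −2.26 without replicate 2 of the group. Over both its probe sets it was −0.18. Pcgf1 differed by −1.72 ± 1.15, and by 0.10 without replicate 2 of the group without TMX, where it read 1.66. Suz12 was lower on both arrays, 8.39 and 8.42 against 9.09 and 8.95, a difference of −0.61 ± 0.39. Cbx7 gave 6.22 and 5.48 without TMX against 4.78 and 4.96 with it, a difference of 0.98 ± 0.56, and its 2 other probe sets were also higher. Dnmt3a was higher by 0.68 ± 0.55, as were its 4 other probe sets. Ezh1 (0.14), Ezh2 (0.07), Bmi1 (0.15), Kmt2a (−0.18), Dot1l (0.10), Dnmt1 (0.25), Tet2 (0.05) and Asxl1 (0.23) differed by less than their SE, with adjusted p = 1.0.

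**Figure D3:**
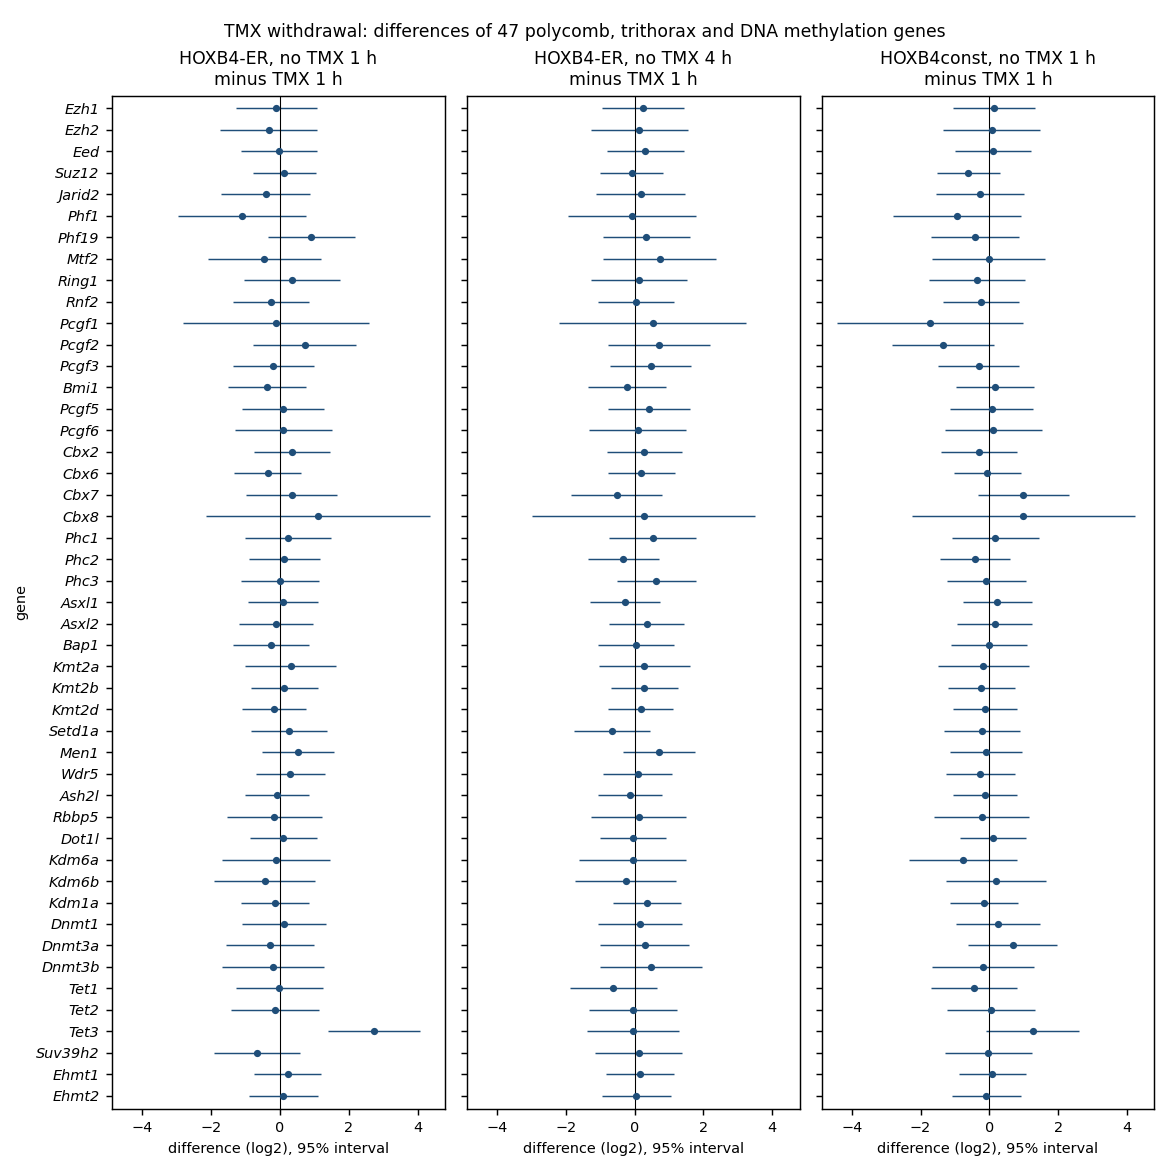
Difference in log2 signal (x axis) with its 95% interval from limma for each of the 47 genes (y axis, ordered by role), for HOXB4-ER cells without TMX at 1 h (left) and 4 h (middle) and HOXB4const cells without TMX at 1 h (right), each against the same construct with TMX at 1 h. Nearly every interval spans 0; Tet3 at 1 h in HOXB4-ER cells, at 2.73, is the one whose interval does not, and with adjustment over 45037 probe sets it does not pass.

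Whether withdrawal differed between the constructs was tested directly as the HOXB4-ER difference minus the HOXB4const difference at 1 h. For 0 of 47 genes and 0 probe sets did limma's test pass, and 0 of the 47 had an unadjusted p under 0.05, against 3.05% of all genes (1698 probe sets). Pcgf2 came nearest, at 2.07 ± 0.90 (adjusted p = 1.0), with its second probe set at −2.19 and the mean of both at −0.0626. It was 1.17 without the array that stood apart and 2.97 without the other array of that group. Tet3 (1.48 ± 0.81), Phf19 (1.34 ± 0.76), Suz12 (0.74 ± 0.55), Dnmt3a (−0.96 ± 0.77) and Men1 (0.63 ± 0.63) followed. Ezh1 (−0.24), Ezh2 (−0.39), Bmi1 (−0.52), Kmt2a (0.49), Dot1l (0.00), Dnmt1 (−0.14), Tet2 (−0.19) and Asxl1 (−0.14) differed by less than their SE. The median over the 47 genes was 0.04, with 25 above 0 and 22 below (20 and 27 after centring), and the median half-width of the interval was 1.69.

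The constructs were also compared with each other. With TMX, when both forms of HOXB4 are active, 26 genes were higher and 21 lower in HOXB4-ER cells, with a median difference of 0.00. Limma passed 0 genes and 0 probe sets, and Tet3, at 1.85 and 0.57 in HOXB4-ER and 3.15 and 2.40 in HOXB4const cells, was the only gene with an unadjusted p under 0.05, against 3.63% of all genes (1972 probe sets). Its difference was −1.57 ± 0.57 (adjusted p = 1.0), and 0.00 with the floor at 4. Bmi1 gave 9.10 and 9.25 in HOXB4-ER against 8.57 and 8.72 in HOXB4const cells, a difference of 0.53 ± 0.48. Pcgf2 (−0.98 ± 0.63), Ezh1 (−0.50 ± 0.51), Dnmt3a (0.53 ± 0.55) and Wdr5 (−0.40 ± 0.43) did not pass. Arrays did not overlap for 8 genes, against 30.8% of all genes: 2 were higher, against 10.2%, and 6 lower, against 20.6%. Centring gave 41 higher and 6 lower, with the median of all genes at 0.32.

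Averaging the groups with and without TMX at 1 h gave 4 arrays a side and a median half-width of 0.85. By limma 0 genes and 0 of 45037 probe sets passed, with 3387 probe sets at an unadjusted p under 0.05, and 0 of the 47 genes, against 6.54% of all genes. Tet3 (−0.83 ± 0.40), Ezh1 (−0.61 ± 0.36), Tet1 (0.71 ± 0.38), Phf19 (0.63 ± 0.38), Setd1a (0.43 ± 0.33) and Suz12 (0.37 ± 0.28) had the smallest p-values, with adjusted p from 0.713 to 0.863. The arrays of the constructs did not overlap for 0 of the 47 genes, against 4.53% of all genes. The intervals of 20 genes lay within 1 log2 unit of 0. For Ezh2 the interval was −0.92 to 1.07, for Dnmt1 −0.93 to 0.80, for Dot1l −0.52 to 0.84, for Asxl1 −0.89 to 0.54 and for Dnmt3a −0.85 to 0.96. Bmi1 (0.27), Kmt2a (0.25) and Tet2 (0.31) lay slightly above 0. Centring turned the split from 29 higher and 18 lower to 43 and 4, with the median of all genes at 0.29. Granulocyte markers were higher in HOXB4-ER cells, 8 of 9 with a median of 1.82, and their part in these values was not tested. Their mean deviation from all arrays was 2.39 and 1.90 in HOXB4-ER against −0.85 and −0.49 in HOXB4const cells on replicate 1, but −1.03 and −0.80 against −0.73 and −1.66 on replicate 2. Their summed level was higher in HOXB4-ER cells on both replicates, 13.70 to 14.36 against 12.84 to 13.13.

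Several genes separated the arrays by replicate number in every group. Across the 5 groups, Ezh2 ran from 9.59 to 10.30 on replicate 1 arrays and from 10.31 to 10.97 on replicate 2 arrays (medians 10.12 and 10.71). Dnmt1 ran from 10.64 to 10.95 and from 11.13 to 11.66. Tet2 went the opposite way, from 8.02 to 8.44 on replicate 1 and from 7.35 to 7.94 on replicate 2 arrays. For these genes, and for Pcgf6 and Rbbp5, which were higher on replicate 2, replicates 1 and 2 shared no range. That was 5 of 47 genes against 7.92% of all genes (4 higher against 4.81%, 1 lower against 3.11%), a share near the background.

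With a term for group in the fit, the difference of replicate 2 minus replicate 1 was 0.68 ± 0.26 for Ezh2, 0.53 ± 0.23 for Dnmt1 and −0.64 ± 0.22 for Tet2 (SE, log2), with adjusted p of 0.352, 0.402 and 0.305. By limma 0 of the 47 genes and 0 probe sets passed by replicate number, and 6152 probe sets had an unadjusted p under 0.05. Of the 47 genes 7 had one, against 12.1% of all genes, a share near the background: 4 were higher, against 4.49%, and 3 lower, against 7.57%. With any 1 array left out, 1 to 3 of the 47 genes had one. Those higher on replicate 2 were Mtf2, Dnmt3b, Ezh2 and Pcgf6, and those lower were Tet2, Dnmt3a and Kdm6b. The median half-width of the interval was 0.61, and in all 26 genes were higher and 21 lower, with a median of 0.12 (37 and 10 after centring).

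When the spread was allowed to follow the intensity, 5 of the 47 genes passed: Mtf2 (adjusted p = 0.00341), Dnmt3b (0.0235), Ezh2 (0.0255), Tet2 (0.0259) and Pcgf6 (0.0378). In that fit 6.98% of all genes passed as well, 1270 genes. With values floored at 4, of the 47 genes Tet2 passed (adjusted p = 0.0483). After each array was centred on its median, the Tet2 difference was −0.32 ± 0.31 and that of Ezh2 1.00 ± 0.40, and the median of all genes was 0.29.

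Some of the genes with the smallest p-values, and Dnmt1 and Kmt2a, were checked over their other probe sets. Those of Dnmt3a and Pcgf6 are not given here. Mtf2, the PRC2 subunit that binds CG-rich DNA, had the smallest p-value. Its means were 8.26 ± 0.45 and 9.20 ± 0.53 (SD, n = 5 arrays each), with replicate 2 higher in 5 of 5 groups. Of its 5 other probe sets, 2 were slightly higher (0.08 and 0.17) and 3 lower, one of them at −0.96 ± 0.24. Dnmt3b was likewise higher in 5 of 5 groups (8.10 ± 0.47 and 8.84 ± 0.29), while its second probe set was at −0.82. In contrast, all 3 probe sets of Dnmt1 were higher (0.53, 0.81 and 0.83) and both of Tet2 were lower (−0.64 and −1.22). Kdm6b was lower in all 3 (−0.74, −1.03 and −0.69) and Kmt2a in both (−0.57 ± 0.26 and −1.10). Ezh2 had 1 probe set.

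The same direction in every group was found for 15 of the 47 genes, against 19.9% of all genes: 11 were higher, against 10.9%, and 4 lower, against 8.98%. Of the 47 genes 45 lay at or above the median level of all probe sets, whereas all genes include many dimmer, more variable ones. The shares over all genes given for the replicate numbers are therefore not matched in level. Higher on replicate 2 in 5 of 5 groups were Ezh2, Eed and Mtf2 of PRC2, Pcgf3, Pcgf5, Pcgf6 and Phc3 of PRC1, Asxl1, Rbbp5, Dnmt1 and Dnmt3b. Lower in 5 of 5 were Ezh1, Kdm6b, Dnmt3a and Tet2. Ezh1 gave −0.43 ± 0.26 and Dnmt3a −0.64 ± 0.22. Over all probe sets of a gene, Ezh1 was at 0.24, Dnmt3b at −0.0399 and Mtf2 at −0.12, so the directions of these genes depend on the probe set. Asxl1 (0.31 ± 0.21), Bmi1 (0.35 ± 0.25) and Dot1l (0.18 ± 0.22) did not pass, with adjusted p of 0.566, 0.594 and 0.764.

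Monocyte and macrophage markers and S-phase genes also went with the replicate number. Of 12 monocyte and macrophage markers, 12 were lower on replicate 2, 11 of them with an unadjusted p under 0.05, with a median of −2.67, and 0 of the 12 lay below the median level of all probe sets. Of 22 S-phase genes, 19 were higher, with a median of 0.39, and their summed level ran from 14.63 to 14.90 on replicate 1 and from 15.003 to 15.32 on replicate 2 arrays. The 8 measured markers of early progenitors had a median of 0.62, but their summed levels overlapped. These ran from 12.69 to 12.995 on replicate 1 and from 12.87 to 13.38 on replicate 2 arrays. Gapdh, 3′ minus 5′, was 1.10 ± 0.26 on replicate 1 and 2.72 ± 1.08 on replicate 2 (SD, n = 5 arrays each). The part of cell makeup, cycling and RNA integrity in the differences of Ezh2, Dnmt1, Tet2 and the other genes was not tested.

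**Figure D4:**
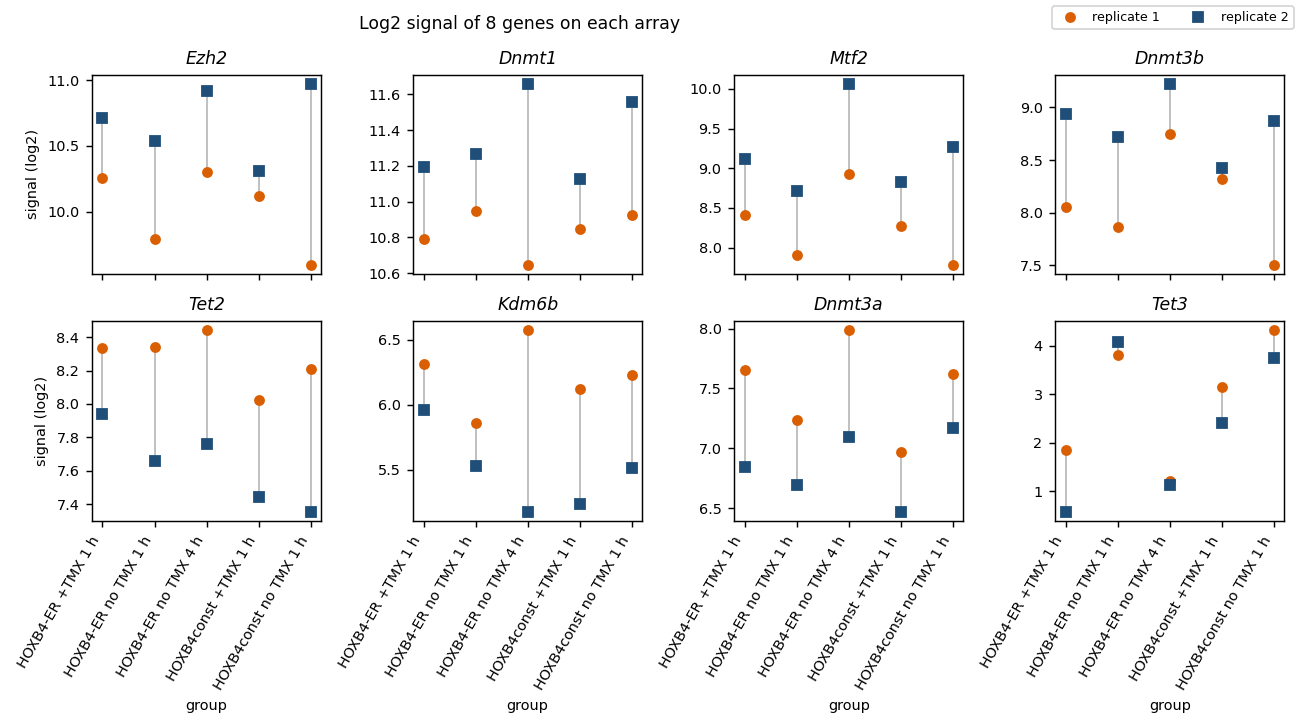
Log2 signal (y axes, each panel on its own scale) of 8 genes in the 5 groups (x axis), replicate 1 as circles and replicate 2 as squares, with a line joining the arrays of a group. Ezh2, Dnmt1, Mtf2 and Dnmt3b are higher and Tet2, Kdm6b and Dnmt3a lower on the replicate 2 array of every group, while Tet3 differs mainly between groups and lies near or below the median of all probe sets, 4.05.

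**Figure D5:**
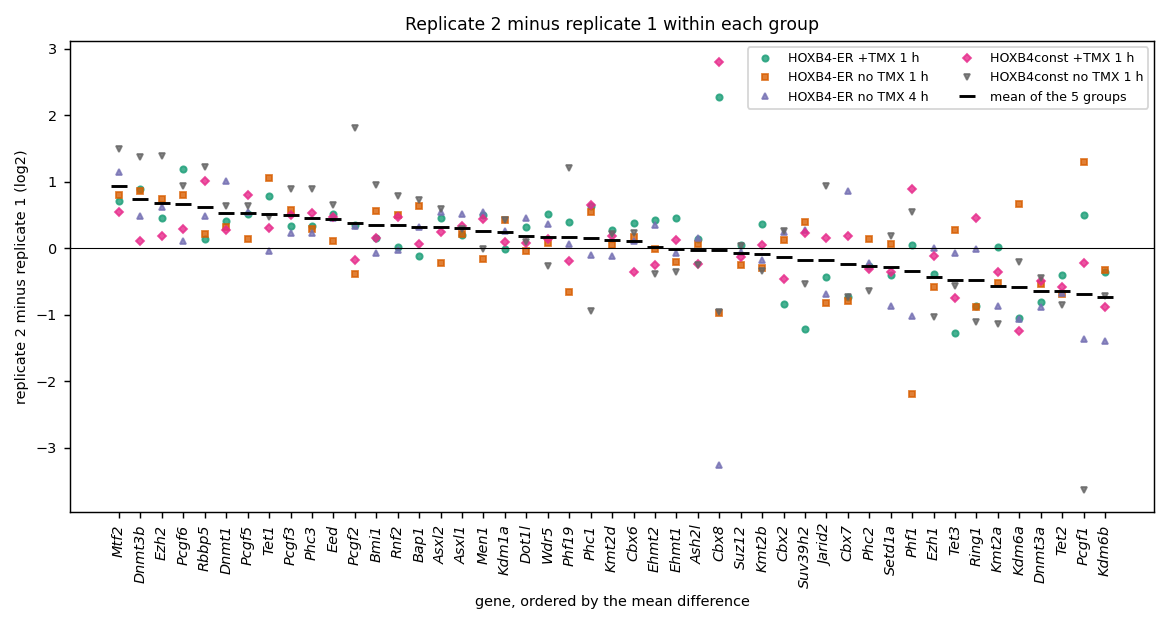
Replicate 2 minus replicate 1 in log2 signal (y axis) for the 47 genes (x axis, ordered by the mean difference), with 1 marker for each of the 5 groups and a bar for their mean. The means run from 0.94 for Mtf2 to −0.74 for Kdm6b, and the markers of Cbx8 and Pcgf1 are the most scattered.

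Of 75 further genes of the same pathways, 70 were measured. On TMX withdrawal in HOXB4-ER cells, 28 were higher and 42 lower at 1 h (median −0.06), and 42 higher and 28 lower at 4 h (median 0.06). Limma passed 0 of the 70 in each of the 8 comparisons. At 4 h, 3 of the 70 had an unadjusted p under 0.05, against 2.63% of all genes: Uhrf2, a reader of modified DNA (1.10 ± 0.43), and Kdm3a, an H3 lysine 9 demethylase (0.97 ± 0.39), were higher, and Kdm4d (−2.46 ± 0.77) was lower. In HOXB4const cells at 1 h the count was 27 higher and 43 lower. By replicate number 46 were higher and 24 lower, and 6 of the 70 had an unadjusted p under 0.05, against 12.1% of all genes. Among these were Yaf2 of PRC1 (0.74 ± 0.23) and the PRC2 histone chaperone Rbbp4 (0.73 ± 0.24), both higher on replicate 2, and the H3 lysine 9 demethylase Kdm3b (−0.65 ± 0.22), which was lower.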

How the data were processed

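Total RNA of sorted, cultured mouse cells was amplified with an oligo-dT primer, labelled with biotin and hybridised to Affymetrix mouse arrays of 1 colour, per the labels' protocols. The deposited table holds 1 value per probe set and array, which was taken as log2: on the linear scale the 2% trimmed mean of every array is 100.0. GCOS and RMA are both named in the submitters' processing notes, with no role for either, and no source used here gives detection calls or the background correction. Array number limits the precision, and values far below the array median have no sure order.

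The deposited log2 values were used unchanged. In R 4.3.3, limma 3.58.1 fitted 1 mean per group to all 10 arrays and 45037 probe sets (64 controls left out), with Benjamini-Hochberg adjustment over all probe sets of each comparison and a threshold of 0.05; the replicate comparison had a term for group. Gene names came from the platform annotation: 34945 probe sets had 1 symbol, 932 several and 9160 none listed, and only those with 1 were named. Named genes were those past the threshold (up to 12 in each direction), filled to 6 by smallest p, and 9 fixed ones (Ezh1, Ezh2, Bmi1, Kmt2a, Dot1l, Dnmt1, Dnmt3a, Tet2, Asxl1); the dimmer Suv39h2 probe set was picked after its values were seen. The members, gene lists and tests were chosen with earlier results of these data known. The fit was tested on simulated data. Replicate 2 minus replicate 1 correlated above 0.1 in 10 of 10 pairs of groups over 22519 brighter probe sets (0.21 to 0.527). Over the 47 genes it did so in 7 of 10 pairs (−0.154 to 0.647, median 0.163). Populations were divided between treatments per the labels, so the numbers may pair the arrays. The comparisons between groups had no term for the replicate number, so their SEs and intervals do not use such a pairing. Intervals with that term are not given here.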

Additional observations from a re-analysis of the deposited data

Results flagged for a closer look

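Pcgf2, a PRC1 subunit, differed in opposite directions between the constructs on every array: withdrawal of TMX for 1 h gave 0.71 (0.715) in HOXB4-ER and −1.35 in HOXB4const cells. The difference between them was 2.07 ± 0.90, with an adjusted p of 1.0. It was −0.0626 over both probe sets of the gene, and 1.17 without replicate 1 and 2.97 without replicate 2 of HOXB4const without TMX. Wdr5, a subunit of the MLL and SET1 complexes, gave 0.30 in HOXB4-ER and −0.26 in HOXB4const cells, again with all arrays apart, and the difference between constructs had an adjusted p of 1.0 as well. This pattern was met by 2 of 47 genes (4.26%) and by 597 of all 18193 genes (3.28%).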

How the results depend on the processing

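Among counts of calls and member medians, 145 values under other settings stayed as reported, 10 medians moved by more than 0.12 (the SD between replicates) and 13 counts grew. Array centring moved the median of the 47 genes to −0.40 on withdrawal at 1 h in both HOXB4-ER and HOXB4const cells, to 0.56 for 4 h against 1 h, 0.42 and 0.45 for the constructs with TMX and averaged, and 0.44 for the replicate numbers. Quantile normalization gave 22 genes higher and 25 lower in HOXB4const cells, and 29 and 18 for 4 h against 1 h. For the constructs it gave 23 and 24 with TMX and 28 and 19 averaged, and by replicate number 30 and 17. The mean of all probe sets of a gene gave 0.13 at 1 h, −0.0575 for 4 h against 1 h, −0.0737 for the averaged constructs and −0.16 for the replicate numbers. It reversed Pcgf2 (−0.24) at 1 h, Phc3 (−0.25) at 4 h, Pcgf2 (−0.0626) and Phf19 (−0.15) in the difference between constructs on withdrawal, Phf19 (−0.21) between constructs, and Mtf2 (−0.12), Dnmt3b (−0.0399) and Ezh1 (0.24) by replicate number. A reversal was counted only where the reported difference exceeded its SE.

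With a floor of 4, probe sets passing were 37 at 1 h, 43 for 4 h against 1 h, 110 in HOXB4const cells, 63 for the difference between constructs on withdrawal, 24 and 78 for the constructs with TMX and averaged, and 504 by replicate number, with 1 of the 47 genes; Tet3 went to 0.04 at 1 h, −0.04 for 4 h against 1 h and 0.16 in HOXB4const cells, reversed to −0.12 between constructs on withdrawal and went to 0.00 between constructs with TMX. An intensity trend gave 6 probe sets for the averaged constructs and 2728 by replicate number, with 5 of the 47 genes. By replicate number, brighter probe sets alone gave 850 and a fit with no group term 343. The cause of these changes was not tested.

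Leaving out 1 array left 0 probe sets and 0 of the 47 genes past the threshold in each comparison. It moved the member median between −0.18 and 0.0454 on withdrawal in HOXB4const cells, −0.17 and 0.19 for the difference between constructs, −0.08 and 0.13 for the constructs with TMX, and −0.052 and 0.0927 averaged. The 0.0454, −0.17 and −0.052 came without replicate 1 of HOXB4const without TMX, and the 0.13 without replicate 1 of HOXB4-ER with TMX. Pcgf1 in HOXB4const cells ran from −3.54, without replicate 1 of the group without TMX, to 0.10, without replicate 2. The replicate block left 0 probe sets past the threshold in the 7 other comparisons and changed no call.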
